A study of Mus musculus with 16 samples.

Results

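The chromatin accessibility of *Tox*, *Tox2* and *Satb1* was described at 4 stages of mouse thymocyte development. The members are the ATAC-seq peaks that lay within each gene body or within 200 kb on either side of it, with gene positions from GENCODE M21 on mm10. They numbered 804 of the 476734 peaks in the deposited lists. Merged across stages where they shared at least 1 bp, they formed 337 of 185978 regions, of which 95 lay at *Tox*, 101 at *Tox2* and 141 at *Satb1*. In ATAC-seq a transposase inserts adapters into accessible DNA, so that reads pile up over open chromatin. The samples were 16 libraries of thymocytes from 4 wild type C57BL/6J mice, 9 weeks old, with 1 library per mouse and stage. Flow cytometry separated DN cells, which lack CD4, CD8 and CD3, DP cells, which carry CD4 and CD8, and the CD3+ single-positive cells, SP4 with CD4 and SP8 with CD8, after removal of cells with markers of other lineages. The authors pooled the 4 mice of a stage before peaks were called, so each stage has a single value, the spread over mice is unknown, and stages could not be tested against each other.

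TOX is a nuclear protein with an HMG-box DNA-binding domain. It is switched on during positive selection in the thymus and is required for the development of CD4 lineage T cells. TOX2 is a close relative with the same domain, known from natural killer and follicular helper T cells. SATB1 is an abundant thymocyte protein that binds AT-rich DNA and organises chromatin loops around genes such as *Rag1*, *Rag2*, *Cd4* and *Cd8a*, and mice that lack it have defects of thymocyte development.

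The lists held 150139 (DN), 107110 (DP), 115074 (SP4) and 104411 (SP8) peaks, all on chromosomes 1 to 19. Each peak carries a fold enrichment of reads at its summit over the local background. The median fold enrichment of a list lay between 5.45 (DP) and 6.11 (SP8). Since the lists differ in length and scale, the height of a peak is given below as its percentile, the share of peaks in the same list with a lower fold enrichment. Read depth is not part of the lists. The authors had down-sampled the libraries to their median depth, and the pooled stages were of similar but not equal depth. Where no peak was called, signal may therefore still lie below the caller's threshold. A region within 500 bp of the TSS was present for 6 of 8 T lineage markers at DN and DP and for 7 of 8 at SP4 and SP8. Of 5 markers each for B cells, myeloid, erythroid, dendritic, natural killer, epithelial and endothelial cells, between 1 and 3 had such a region at every stage. The myeloid count was 3 at DN and 2 at the other stages, the dendritic count 2 at DN and 1 thereafter, and the natural killer count 3 at DN and DP and 2 at SP4 and SP8. The B cell count was 1 (*Ebf1*) throughout. The TSSs of *Cd4* and *Cd8a* had a region at all 4 stages, so that an open TSS by itself did not separate the stages.

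The sequences of 9 regions show what is described below. Each is the 300 bp around the summit of the region's highest peak, read from the plus strand of the GRCm38.p6 assembly (mm10). Capitals mark exact matches, on either strand, to short words for transcription factor families of thymocytes. The E protein words were CACCTG with its variant CAGCTG. The RUNX words were TGTGGT with its variant TGCGGT, and the GATA word was AGATAA. The TCF7/LEF1 words were CTTTGAA with its variant CTTTGAT, and the ETS word was AGGAAGT. The EGR words were GCGTGGG with its variant GCGGGGG, the NFAT word was TGGAAAA and the AP-1 word was TGAGTCA. The NF-kB words were GGGACTT with its variant GGGAATT. Matches to words of different families can overlap and share bases. The first 3 come from the *Tox* window and show a shared region that was low in DN and tall in SP4 cells, a region found in SP4 and SP8 cells only and the highest region of the window.
*Tox* upstream, chr4:7175056-7175355: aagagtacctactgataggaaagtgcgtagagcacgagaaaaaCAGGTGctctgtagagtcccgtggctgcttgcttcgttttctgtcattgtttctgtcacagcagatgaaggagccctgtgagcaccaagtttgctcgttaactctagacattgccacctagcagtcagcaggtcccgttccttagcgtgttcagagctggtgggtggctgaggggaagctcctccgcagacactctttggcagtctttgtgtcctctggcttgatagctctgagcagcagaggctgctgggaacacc
*Tox* downstream, SP4 and SP8 only, chr4:6663548-6663847: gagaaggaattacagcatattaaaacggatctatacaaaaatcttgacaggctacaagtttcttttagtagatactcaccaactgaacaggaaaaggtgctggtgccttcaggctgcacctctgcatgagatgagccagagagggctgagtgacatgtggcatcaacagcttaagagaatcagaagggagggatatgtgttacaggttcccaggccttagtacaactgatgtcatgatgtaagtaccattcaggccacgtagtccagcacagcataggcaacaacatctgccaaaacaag
*Tox* downstream, highest, chr4:6675014-6675313: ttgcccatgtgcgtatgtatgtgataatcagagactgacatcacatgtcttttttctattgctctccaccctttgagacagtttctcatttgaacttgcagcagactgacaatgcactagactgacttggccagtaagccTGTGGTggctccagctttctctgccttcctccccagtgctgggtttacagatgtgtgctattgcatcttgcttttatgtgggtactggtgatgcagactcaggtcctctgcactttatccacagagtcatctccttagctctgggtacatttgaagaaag
The next 3 come from the *Tox2* gene body. They are the highest region of that window, the highest region of DN and DP cells only, and the highest region of DN cells only.
*Tox2* intron 3, highest, chr2:163278500-163278799: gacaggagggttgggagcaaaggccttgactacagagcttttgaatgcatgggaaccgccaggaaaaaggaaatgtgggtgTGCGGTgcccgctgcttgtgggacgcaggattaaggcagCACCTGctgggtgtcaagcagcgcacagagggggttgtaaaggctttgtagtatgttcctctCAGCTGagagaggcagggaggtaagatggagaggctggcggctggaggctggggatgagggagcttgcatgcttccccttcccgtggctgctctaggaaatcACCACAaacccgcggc
*Tox2* intron 3, DN and DP only, chr2:163292172-163292471: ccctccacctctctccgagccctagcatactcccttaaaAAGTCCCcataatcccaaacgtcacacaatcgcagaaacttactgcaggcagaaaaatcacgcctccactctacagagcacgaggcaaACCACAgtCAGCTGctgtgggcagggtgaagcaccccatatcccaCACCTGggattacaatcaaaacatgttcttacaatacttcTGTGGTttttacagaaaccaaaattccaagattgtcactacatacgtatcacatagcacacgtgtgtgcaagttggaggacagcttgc
*Tox2* intron 5, DN only, chr2:163316257-163316556: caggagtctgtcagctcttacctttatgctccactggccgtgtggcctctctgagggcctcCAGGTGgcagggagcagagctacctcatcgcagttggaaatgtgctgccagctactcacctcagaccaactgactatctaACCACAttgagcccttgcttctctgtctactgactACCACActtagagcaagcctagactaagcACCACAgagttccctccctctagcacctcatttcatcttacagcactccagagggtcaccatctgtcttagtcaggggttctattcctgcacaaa
The last 3 come from the upstream flank of *Satb1* and lacked a DN peak.
*Satb1* upstream, DP, SP4 and SP8, chr17:51956360-51956659: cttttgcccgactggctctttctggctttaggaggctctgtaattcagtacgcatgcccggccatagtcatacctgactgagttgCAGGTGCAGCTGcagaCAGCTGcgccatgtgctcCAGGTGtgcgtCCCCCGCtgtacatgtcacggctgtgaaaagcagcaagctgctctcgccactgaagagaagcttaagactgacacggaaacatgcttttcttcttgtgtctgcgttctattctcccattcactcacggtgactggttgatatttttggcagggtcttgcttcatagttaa
*Satb1* upstream, DP and SP4, chr17:51938957-51939256: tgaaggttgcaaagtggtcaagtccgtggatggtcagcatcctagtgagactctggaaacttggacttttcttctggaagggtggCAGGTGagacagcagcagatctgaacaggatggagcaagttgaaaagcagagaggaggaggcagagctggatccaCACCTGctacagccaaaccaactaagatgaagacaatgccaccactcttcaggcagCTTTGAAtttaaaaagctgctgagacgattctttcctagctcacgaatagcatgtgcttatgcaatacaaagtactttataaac
*Satb1* upstream, SP4 and SP8 only, chr17:51857701-51858000: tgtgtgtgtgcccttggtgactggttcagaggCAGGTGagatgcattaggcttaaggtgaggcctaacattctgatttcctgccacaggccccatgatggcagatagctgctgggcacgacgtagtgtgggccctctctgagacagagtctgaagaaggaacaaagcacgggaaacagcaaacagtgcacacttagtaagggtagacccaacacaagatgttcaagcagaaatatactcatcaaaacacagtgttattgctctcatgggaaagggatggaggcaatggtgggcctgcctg

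*Tox* (ENSMUSG00000041272.11, minus strand of chromosome 4, 6686353 to 6991557) spans 305205 bp. Its window of 705.2 kb held 49 (DN), 46 (DP), 77 (SP4) and 52 (SP8) peaks. The SP4 list thus had the most peaks at *Tox*, although the DN list is the longest overall. The ratio of SP4 to DN peaks was 1.57 (95% interval from the counts 1.10 to 2.24), against 0.766 for the whole lists. Among peaks at or above the 25th percentile it was 1.39, with an interval of 0.922 to 2.11 that included 1. The ratio of SP8 to DN peaks was 1.06 (whole lists 0.695) and that of DP to DN peaks 0.939 (whole lists 0.713). Windows built in the same way around 16207 protein-coding genes with at least 20 DN peaks served as the background. Their median SP4 to DN ratio was 0.767, and 27 of them had a higher ratio than *Tox*. These windows overlap between neighbouring genes and are not independent.

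*Tox2* (ENSMUSG00000074607.11, plus strand of chromosome 2, 163203125 to 163324170) spans 121046 bp and had the opposite order. Its window of 521.0 kb held 94 (DN), 59 (DP), 45 (SP4) and 45 (SP8) peaks. The ratio to DN was 0.628 for DP (0.454 to 0.868) and 0.479 for both single-positive stages (0.336 to 0.682). These were below the ratios of the whole lists, but the DP interval included the DP ratio of the whole lists, 0.713. Of the 16207 windows, 15450 had a higher SP4 to DN ratio than *Tox2*.

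*Satb1* (ENSMUSG00000023927.15, minus strand of chromosome 17, 51736187 to 51833290) spans 97104 bp. Its window of 497.1 kb held 56 (DN), 79 (DP), 108 (SP4) and 94 (SP8) peaks. The ratio to DN was 1.41 for DP, 1.93 for SP4 and 1.68 for SP8. Only 4 of the 16207 windows had a higher SP4 to DN ratio and 6 a higher SP8 to DN ratio. The window also held 28.4 regions per 100 kb, against a median of 16.3 over the windows. The corresponding densities were 13.5 at *Tox* and 19.4 at *Tox2*. When only peaks at or above the 25th percentile of their list were counted, the DP to DN ratio at *Satb1* was 1.06 (0.662 to 1.70), while SP4 to DN was 1.58 (1.02 to 2.43) and SP8 to DN 1.55 (1.001 to 2.39).

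**Figure D1:**
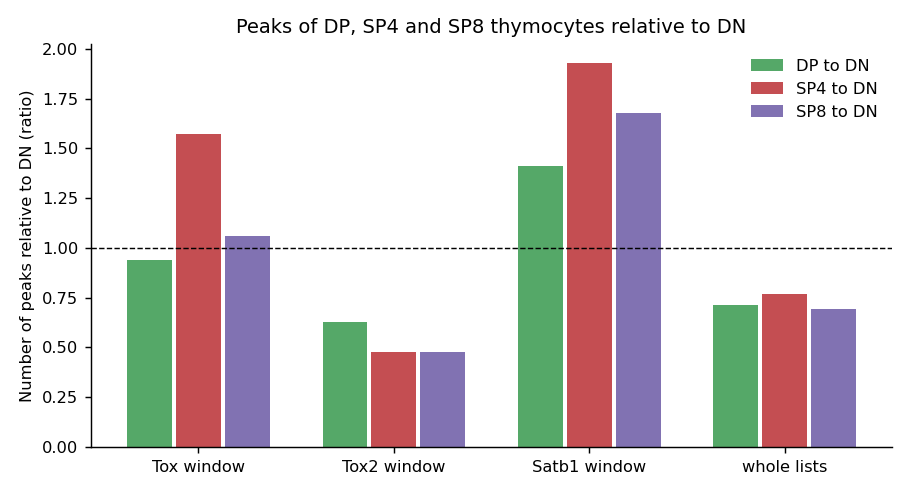
Number of peaks at DP (green), SP4 (red) and SP8 (purple) relative to DN in the 3 windows and in the whole lists, with 1 pooled list per stage and no error bars; the dashed line marks equal numbers. *Satb1* lies above 1 at every stage, *Tox* at SP4 and SP8, and *Tox2* lies below the whole lists at every stage. At DP the counting intervals of *Tox* and *Tox2* include the ratio of the whole lists, and at SP8 the interval of *Tox* includes 1.

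The stages at which regions were called differed between the genes in the same way. Regions without a DN peak made up 49.5% of those at *Tox* (47 of 95, 95% Wilson interval 39.6 to 59.4) and 65.2% of those at *Satb1* (92 of 141, 57.1 to 72.6). They made up 12.9% of those at *Tox2* (13 of 101, 7.68 to 20.8) and 24.3% of all regions. Intervals cover counting error only. Regions called in DN cells only showed the reverse. They were 8.42% at *Tox* (4.33 to 15.7), 4.26% at *Satb1* (1.96 to 8.97) and 41.6% at *Tox2* (42 regions, 32.5 to 51.3), against 21.7% of all regions. Regions called at neither SP4 nor SP8 were 51.5% of those at *Tox2* (41.9 to 61.0), 18.9% at *Tox* and 14.9% at *Satb1*, against 32.5% of all regions.

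Many regions at *Tox* and *Satb1* were called in single-positive cells alone. Regions called at SP4, SP8 or both and at no earlier stage were 38.9% at *Tox* (37 regions, 29.8 to 49.0) and 37.6% at *Satb1* (53 regions, 30.02 to 45.8), against 15.4% of all regions and 5.94% at *Tox2* (6 regions). Those shared by SP4 and SP8 numbered 18 at *Tox* (18.9%, 12.3 to 28.0) and 21 at *Satb1* (14.9%, 9.95 to 21.7), against 3.82% of all regions. Of the 16207 windows, 36 had a higher share of such regions than *Tox* and 127 a higher share than *Satb1*. Regions of SP4 alone were 16.8% at *Tox* (16 regions) and 14.2% at *Satb1* (20 regions), against 7.39% of all regions. SP8 alone accounted for 3 regions at *Tox* (3.16%, 1.08 to 8.88) and 12 at *Satb1* (8.51%, 4.94 to 14.3), against 4.21% of all regions. The regions of SP4, SP8 or both at *Satb1* were often low. Below the 10th percentile lay 20 of these 53, against 5766 of 28674 over the series and 6 of 37 at *Tox*. The median of the highest percentile at *Satb1* was 6.94 for SP4 alone (series 23.2), 9.14 for SP8 alone (17.1) and 36.4 for those shared by both (43.6).

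*Satb1* stood out by a further set. At 18 of its regions (12.8%, 8.23 to 19.3) a peak was called at DP, SP4 and SP8 but not at DN, against 1.77% of all regions, and 1 of the 16207 windows had a higher share. The *Tox* window held 1 such region and the *Tox2* window 2. The median of the highest percentile over the 18 *Satb1* regions was 30.8, against 50.6 over all such regions of the series. Regions called at all 4 stages were 26.3% at *Tox* (25 regions, 18.5 to 36.0), 27.7% at *Tox2* (28 regions, 19.9 to 37.1) and 21.3% at *Satb1* (30 regions, 15.3 to 28.7), against 34.1% of all regions. The interval at *Satb1* lay below that background and the other two included it. Regions of a single stage were 35.8% at *Tox*, 49.5% at *Tox2* and 35.5% at *Satb1*, against 38.5% of all regions.

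**Figure D2:**
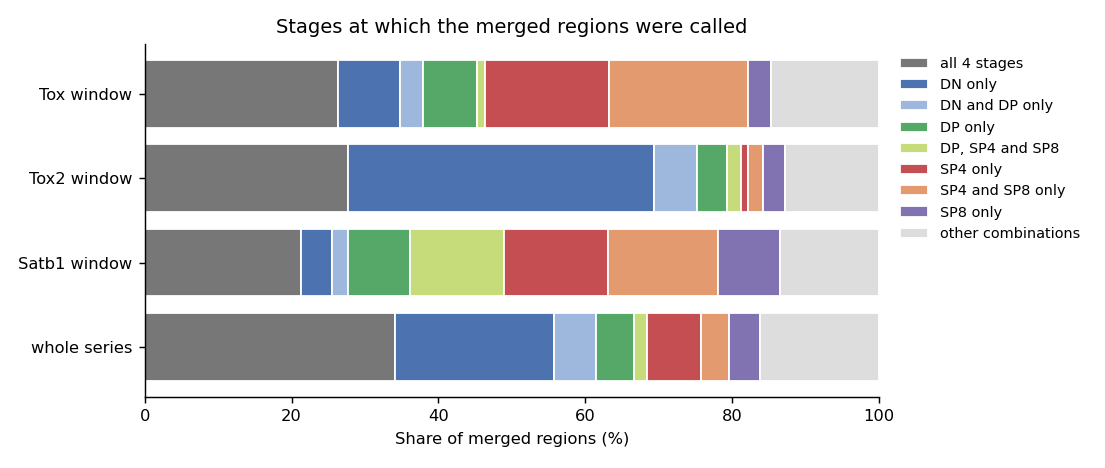
Share of merged regions (%) by the stages at which a peak was called, for 95 regions at *Tox*, 101 at *Tox2*, 141 at *Satb1* and 185978 in the whole series. DN-only regions take 41.6% at *Tox2*, and regions of SP4, SP8 or both take 38.9% at *Tox* and 37.6% at *Satb1*.

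At *Tox*, the TSS lay in an open region at every stage (chromosome 4, 6990535 to 6991713, the widest of the window at 1179 bp). Its peak was at the 76.6th percentile at DN, the 84.0th at DP, the 70.2nd at SP4 and the 77.9th at SP8. The heights at the TSS thus spanned a narrow range. The tallest region lay beyond the 3′ end of the gene. This region, 316.4 kb downstream of the TSS (6674942 to 6675469), was at the 99.3rd percentile at DN, the 91.7th at DP, the 95.6th at SP4 and the 98.5th at SP8. A region 309.4 kb downstream (6681707 to 6682449) was at the 96.6th, 93.0th, 95.1st and 97.7th percentile in the same order. A region in intron 3 (6803212 to 6803809) was at the 98.0th percentile at DN and between the 88.0th and 91.5th at the later stages. These 3 regions were open at all stages, as the TSS was.

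Other shared regions of *Tox* differed widely in height between stages. A region 183.6 kb upstream of the TSS (7175023 to 7175659) was at the 17.1st percentile at DN, the 74.4th at DP, the 94.9th at SP4 and the 84.7th at SP8, with fold enrichments of 3.55, 9.82, 22.4 and 15.4. It was low in DN cells and among the tallest peaks of the window in SP4 cells. The reverse order was seen 483.2 kb downstream of the TSS, at the start of the processed pseudogene *Gm11803* (6507973 to 6508465), with the 96.8th percentile at DN, the 95.6th at DP, the 51.7th at SP4 and the 41.4th at SP8. A region 160.6 kb upstream (7151858 to 7152376) was at the 88.5th percentile at DN, the 4.59th at DP, the 53.5th at SP4 and the 65.5th at SP8. It was thus lowest in DP cells. These regions were chosen after their values were seen, from those with the largest difference between DN and the mean of SP4 and SP8. Over all 25 shared regions at *Tox* the median difference was -2.23 percentile points, against -1.85 over all shared regions of the series. At 8 of the 25 (32%) the mean of SP4 and SP8 was above DN, against 42.4% of all shared regions.

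The 18 *Tox* regions shared by SP4 and SP8 alone were spread over the upstream flank (5), the gene body (11) and the downstream flank (2). Within the gene, intron 1 (148.0 kb) held 42 of the 67 regions and 19 of the 29 that were called only at SP4, SP8 or both. Intron 3 (81.3 kb) held 17 regions, of which 5 were of that kind. The highest, 327.9 kb downstream of the TSS (6663582 to 6664069), was at the 72.5th percentile at SP4 and the 87.5th at SP8. A region in intron 1, 15.7 kb from the TSS (6975727 to 6976280), was at the 86.3rd percentile at SP4 and the 35.7th at SP8. In intron 3 a region 219.4 kb from the TSS (6772025 to 6772250) was at the 78.2nd and 72.3rd percentile. The upstream flank held a region 181.2 kb from the TSS (7172518 to 7172875) at the 52.6th percentile at SP4 and the 85.5th at SP8. The last 3 of these regions were chosen after their values were seen. The median of the highest percentile over the 18 regions was 53.9, against 43.6 over all such regions of the series. The 16 regions of SP4 alone were lower, with a median of 13.9 (range 4.08 to 42.3), and 15 of them lay in the gene body.

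Few *Tox* regions were particular to early cells. Of the 8 DN-only regions, the highest lay 47.9 kb upstream of the TSS (7039253 to 7039587, over the processed pseudogene *Gm11804*) at the 81.0th percentile. The other DN-only regions were below the 75th percentile. Intron 3 held a region (6808940 to 6809215) at the 92.0th percentile at DN, the 73.6th at DP and the 19.3rd at SP4, with no SP8 peak. No other protein-coding gene overlapped the *Tox* window. The longest stretch without a region, 101.2 kb, lay downstream of the gene.

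**Figure D3:**
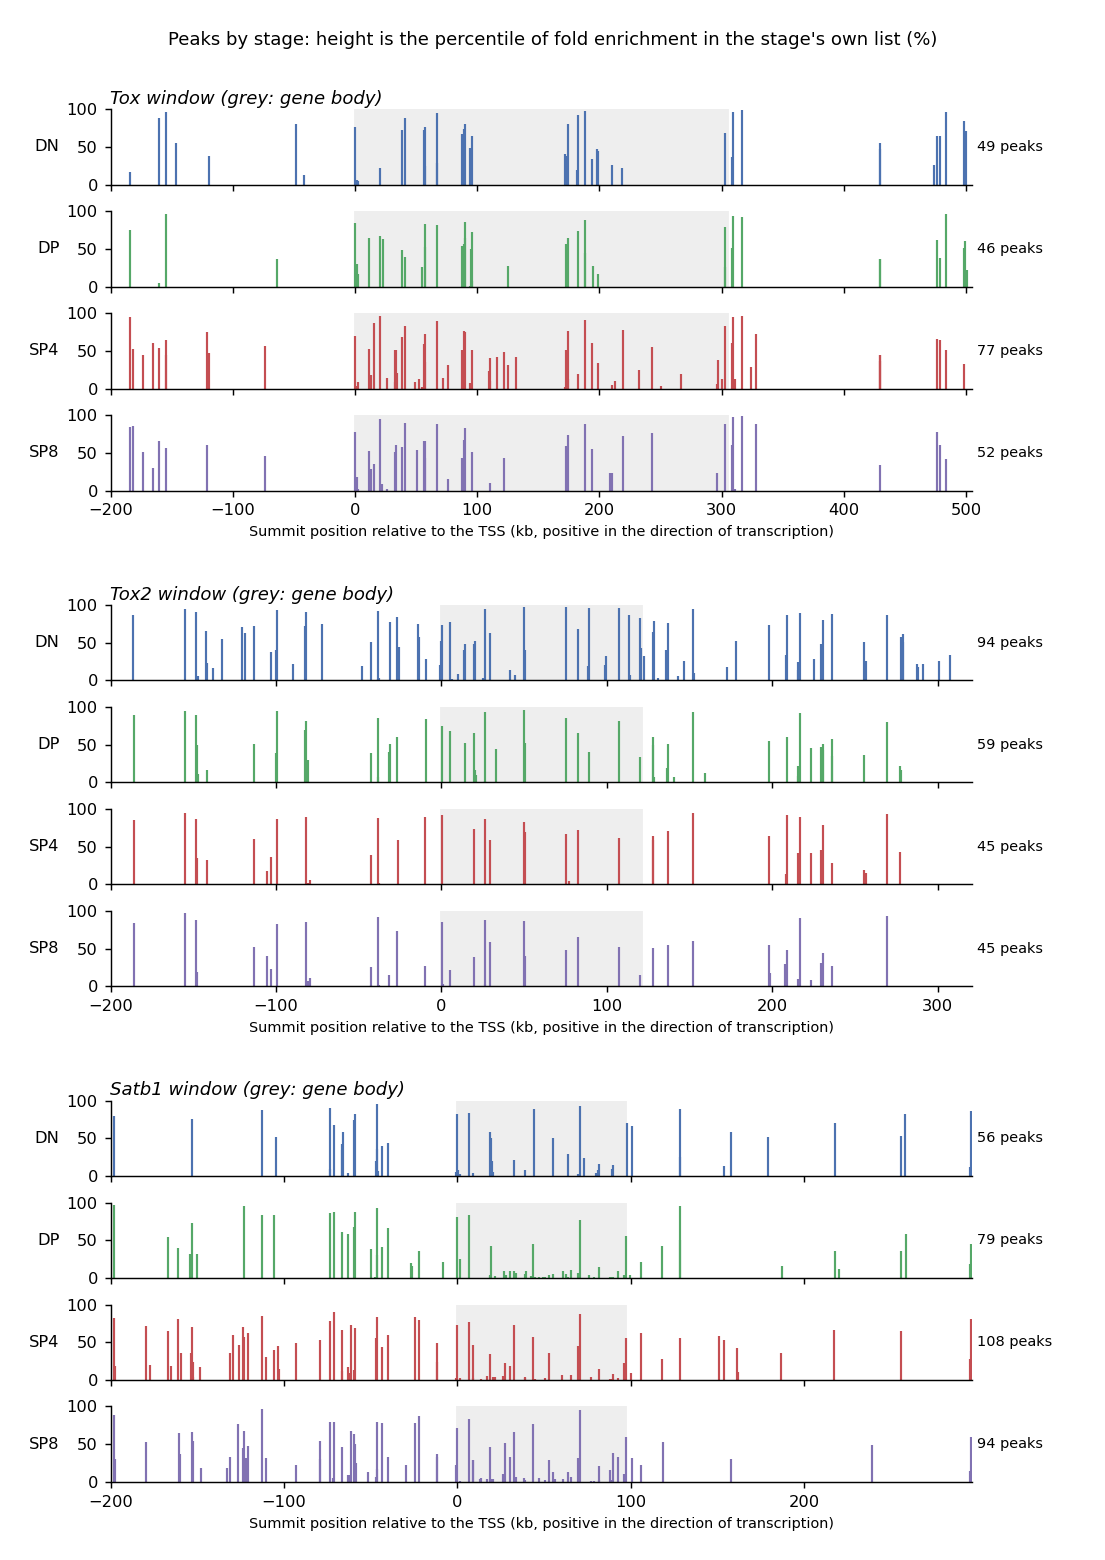
Peaks of each stage along the 3 windows, with the summit's distance from the TSS in kb on the horizontal axis and the percentile of fold enrichment within the stage's own list (%) as the height of each line; grey marks the gene body. At *Tox* most of the added SP4 peaks lie in the gene body, at *Tox2* the DN row is the densest, and at *Satb1* many DP, SP4 and SP8 peaks in the gene body are very low.

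At *Tox2*, the region over the TSS (chromosome 2, 163202911 to 163203950) was present at every stage. Its percentile was 73.3 (DN), 74.7 (DP), 91.2 (SP4) and 85.2 (SP8). This TSS was therefore at least as high in single-positive as in DN cells, although the window held the fewest peaks at those stages. It is the outermost annotated start of the gene and lies outside Tox2-205, the transcript on which introns and exons are numbered. Of the 33 gene body regions, 12 lay outside that transcript. The gene body gave a different picture. The highest region, in intron 3 (163278452 to 163278971), was at the 97.5th percentile at DN, the 85.7th at DP, the 66.9th at SP4 and the 47.5th at SP8. A region further along the same intron, 107.2 kb from the TSS (163310210 to 163310487), was at the 96.0th, 81.9th, 61.1st and 52.6th percentile. A region in intron 2 (163253040 to 163253754) was at the 97.0th percentile at DN, the 95.2nd at DP, the 83.1st at SP4 and the 86.3rd at SP8. Height was thus greatest at DN in each of these 3 intronic regions. Of the 8 shared regions in the gene body, the TSS included, 4 were highest at DN and 4 at SP4. Those highest at SP4 included a region 19.5 kb from the TSS (163222346 to 163222869), with the 48.7th percentile at DN, the 64.9th at DP, the 73.2nd at SP4 and the 39.1st at SP8.

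Other regions of the gene lacked a peak at SP4, SP8 or both. A region in intron 3 (163292179 to 163292584) was at the 95.4th percentile at DN and the 39.8th at DP, with no peak at SP4 or SP8. In intron 5 a region (163316024 to 163316537) was at the 86.7th percentile at DN and was called at no other stage. The last exon of the gene held a region (163322924 to 163323411) at the 82.8th percentile at DN, the 33.8th at DP and the 15.04th at SP8. Of the 28 shared regions at *Tox2*, 16 were highest at DN (57.1%) and 15 were lowest at SP8 (53.6%). Over all shared regions of the series these shares were 35.0% and 26.9%. The median difference between the mean of SP4 and SP8 and DN was -7.72 percentile points, against -1.85 over the series. At 7 of the 28 (25%) that mean was above DN, against 42.4% over the series. The third highest shared region of the window, 154.9 kb upstream of the TSS (163048088 to 163048540), lay between the 94.5th and 96.8th percentile at every stage. A different order was seen at a region 9.57 kb upstream of the TSS (163193262 to 163193829), at the 28.5th percentile at DN, the 83.8th at DP, the 89.6th at SP4 and the 26.7th at SP8. It was high in DP and SP4 cells and low in DN and SP8 cells. This region and those 19.5 and 107.2 kb from the TSS were chosen after their values were seen.

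**Figure D4:**
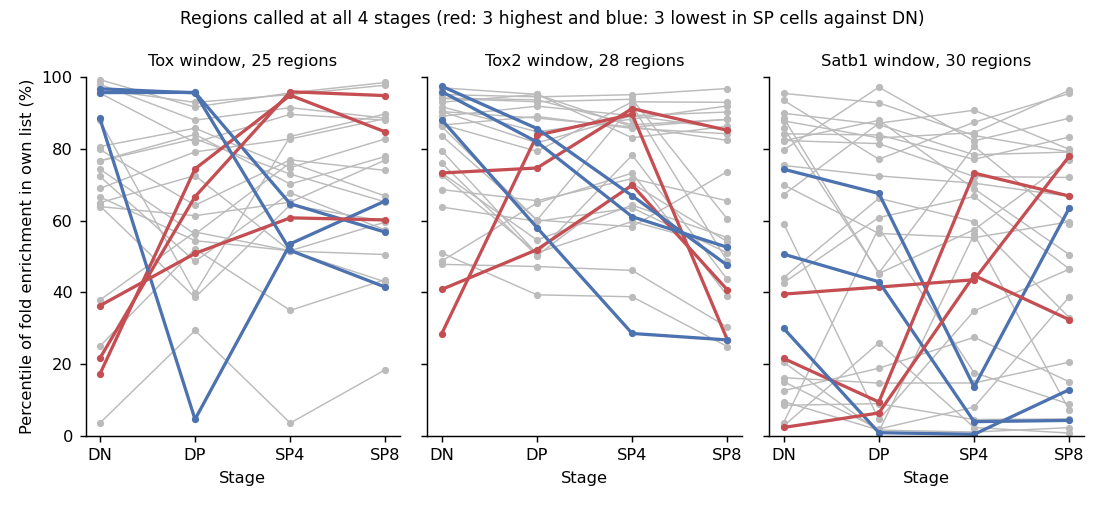
Percentile of fold enrichment (%) at each stage for the regions called at all 4 stages, with 1 line per region and 25 regions at *Tox*, 28 at *Tox2* and 30 at *Satb1*. Red lines are the 3 regions with the highest and blue lines the 3 with the lowest mean of SP4 and SP8 against DN; at *Tox* 1 of the red lines starts at the 17.1st percentile at DN and reaches the 94.9th at SP4.

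Among the natural killer markers, the *Klrb1c* TSS was at the 92.4th percentile at DN and the 52.7th at DP, with no region at SP4 or SP8. The *Klrd1* TSS was at the 98.8th percentile at DN, the 36.1st at DP, the 87.6th at SP4 and the 97.2nd at SP8. The rest of that list did not share the DN height. *Eomes* was at the 61.4th, 66.6th, 56.2nd and 61.2nd percentile in the same order, and *Ncr1* and *Klrk1* had no region at any stage. The part of other cells in the DN peaks at *Tox2* was not tested.

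Most of the 42 DN-only regions at *Tox2* were low. The median percentile was 21.6 (range 0.538 to 86.7), against 30.2 over all DN-only regions, and 10 were below the 10th percentile. They lay in the upstream flank (13), the gene body (13) and the downstream flank (16). Unlike the other windows, this window overlapped 10 further protein-coding genes, *Sgk2*, *Ift52*, *Mybl2*, *Gtsf1l*, *Jph2*, *Oser1*, *Gdap1l1*, *Fitm2*, *R3hdml* and *Hnf4a*. Of the 42 DN-only regions, 12 overlapped one of these. *Mybl2*, which encodes a cell cycle transcription factor, and *Jph2*, which encodes a junctional membrane protein of muscle, held 5 each. *R3hdml* and *Hnf4a*, a nuclear receptor gene of liver and gut, held 1 each. Counting regions of any stage, *Jph2* held 10, *Mybl2* 8, *Oser1* 4, and *Ift52*, *Gdap1l1*, *Fitm2*, *R3hdml* and *Hnf4a* 1 each. Whether DN-only regions lay in these genes more often than other regions of the window was not tested. Regions within 500 bp of the TSS were called at all 4 stages for *Ift52*, *Mybl2*, *Gdap1l1* and *Fitm2*. The *Mybl2* TSS was at the 90.4th percentile at DN, the 88.6th at DP, the 86.1st at SP4 and the 88.2nd at SP8. The region at the *Gdap1l1* TSS was at the 88.1st, 58.1st, 28.5th and 26.7th percentile, the largest difference between DN and single-positive cells among the shared regions of the window, for which it was chosen after its values were seen. The widest region (1482 bp, 163418585 to 163420066) overlapped *Oser1* and lay between the 89.1st and 91.9th percentile at every stage. Which gene the regions of this window act on was not tested.

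*Satb1* differed between its flanks and its gene body. The region over the TSS (chromosome 17, 51832298 to 51833552) was at the 82.3rd percentile at DN, the 81.5th at DP, the 72.3rd at SP4 and the 72.03rd at SP8. In the 200 kb upstream, 20 (DN), 25 (DP), 45 (SP4) and 42 (SP8) peaks were called. This flank held 17 of the 21 regions shared by SP4 and SP8 alone. In the gene body 24 (DN), 41 (DP), 49 (SP4) and 44 (SP8) peaks were called, that is 24.7, 42.2, 50.5 and 45.3 per 100 kb. The downstream flank held 12, 13, 14 and 8 peaks. The excess over DN thus lay in the upstream flank at SP4 and SP8, and in the gene body at DP, SP4 and SP8.

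The peaks in the *Satb1* gene body were mostly of low fold enrichment. Their median percentile was 15.6 (DN), 4.08 (DP), 2.70 (SP4) and 6.37 (SP8). Below the 10th percentile lay 11 of 24 (DN), 33 of 41 (DP), 36 of 49 (SP4) and 24 of 44 (SP8) peaks, where a list as a whole has 10% by definition. The median fold enrichment was 3.45 at DN and between 2.68 and 2.93 at the later stages. In the upstream flank the median percentile lay between 40.6 (SP8) and 58.0 (DP). By fold enrichment, the gene bodies of *Tox* (medians from 36.3 to 54.4) and *Tox2* (47.5 to 69.9) were not as low. A rank by q-value in place of fold enrichment was added after the heights were seen. By that rank the *Satb1* gene body peaks had medians of 19.3 (DN), 29.2 (DP), 37.9 (SP4) and 31.1 (SP8). The medians in the same order were 34.2, 52.8, 36.6 and 51.9 at *Tox* and 52.3, 54.3, 65.3 and 40.9 at *Tox2*. At SP4 the *Satb1* median by q-value was thus above that of *Tox*. Fold enrichment is taken over the reads around a peak, and the level of those reads is not part of the lists, so its share in the low values was not tested. Of the 18 regions called at DP, SP4 and SP8 but not DN, 13 lay in the gene body.

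**Figure D5:**
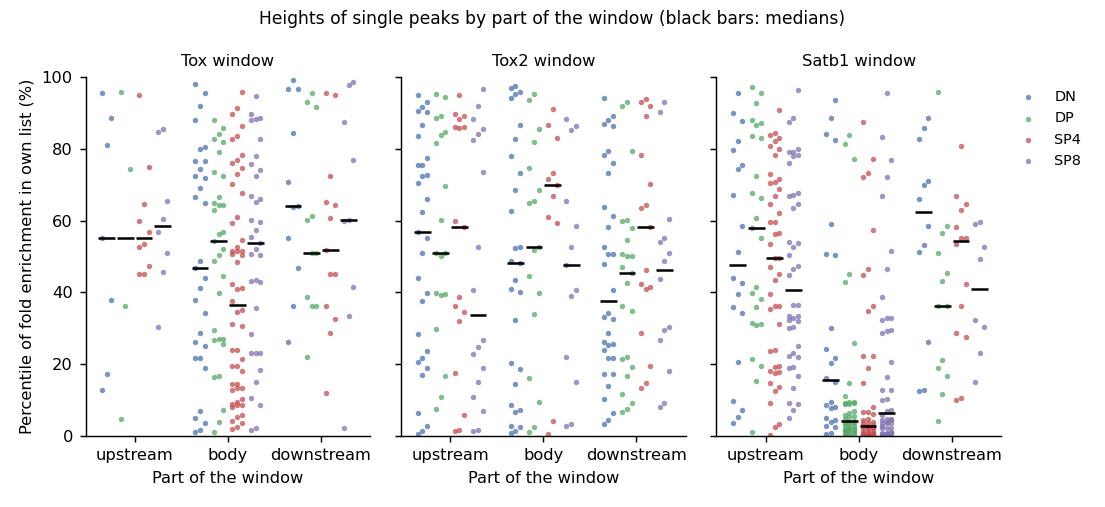
Percentile of fold enrichment (%) of every peak by stage in the upstream flank, gene body and downstream flank of each gene, with 1 point per peak and medians as black bars. The *Satb1* gene body medians lie between the 2.70th and the 15.6th percentile, and the gene body medians of *Tox* and *Tox2* at or above the 36.3rd.

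Heights differed widely among the regions within the *Satb1* gene. In intron 9 a region 70.6 kb from the TSS (51762421 to 51762833) was at the 93.5th percentile at DN, the 77.1st at DP, the 87.4th at SP4 and the 95.5th at SP8. In intron 1 a region 6.65 kb from the TSS (51826320 to 51826858), over another annotated promoter, was at the 84.2nd percentile at DN, the 83.9th at DP, the 77.1st at SP4 and the 83.3rd at SP8. These were tall at every stage. In intron 5 a region 32.9 kb from the TSS (51800271 to 51800579) was at the 21.6th percentile at DN, the 9.43rd at DP, the 73.3rd at SP4 and the 66.8th at SP8. It was thus low until the single-positive stages. The widest region of the window (1684 bp, 51812347 to 51814030), in intron 1 and within 200 bp of another annotated transcript start, was at the 50.6th percentile at DN, the 42.9th at DP, the 3.94th at SP4 and the 4.29th at SP8. These regions, except the widest, were chosen after their values were seen.

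Among regions called at all 4 stages, the 3 tallest of the *Satb1* window lay in the upstream flank. The highest, 197.9 kb from the TSS (52030957 to 52031651), was at the 79.7th percentile at DN, the 97.2nd at DP, the 82.2nd at SP4 and the 88.5th at SP8. A region 112.5 kb upstream (51945656 to 51946132) was highest at SP8, at the 96.3rd percentile, and lay between the 83.0th and 87.8th at the other stages. A region 46.1 kb upstream (51879003 to 51879955) was at the 95.5th percentile at DN, the 92.8th at DP, the 83.7th at SP4 and the 79.1st at SP8. All stages had a peak above the 75th percentile at each of these 3 regions. Over all 30 shared regions at *Satb1* the mean of SP4 and SP8 was above DN at 13 (43.3%), against 42.4% over the series. The median difference was -2.99 percentile points, against -1.85.

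Several upstream regions were called only after the DN stage. A region 123.2 kb upstream (51956234 to 51956654), within the long non-coding RNA gene *AC161258.2*, was at the 95.5th percentile at DP, the 56.5th at SP4 and the 67.2nd at SP8. A region 105.8 kb upstream (51939009 to 51939551) was at the 83.6th percentile at DP and the 39.4th at SP4. A region 24.6 kb upstream (51857396 to 51857958) was at the 83.0th percentile at SP4 and the 78.3rd at SP8. Next to it, 22.2 kb upstream (51855161 to 51855698), a region chosen after its values were seen was at the 35.9th percentile at DP, the 79.9th at SP4 and the 87.4th at SP8. The first 2 of these were highest in DP cells and the last 2 in single-positive cells. In the downstream flank a region 128.3 kb from the TSS (51704865 to 51705152) was at the 88.5th percentile at DN, the 95.9th at DP and the 55.3rd at SP4, with no SP8 peak. A region 258.5 kb from the TSS (51574653 to 51574887) was called at DN (82.7th percentile) and DP (58.6th) only. No other protein-coding gene overlapped the *Satb1* window.

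The regions of the 3 windows also differed in sequence composition. A match to an E protein word was present in 61.4% of the 300 bp windows at *Tox2* (62 of 101, 51.6 to 70.3), 34.7% at *Tox* (33 of 95, 25.9 to 44.7) and 31.9% at *Satb1* (45 of 141, 24.8 to 40.001), against 45.2% of all regions. The median GC content was 51.7% at *Tox2*, 43.7% at *Tox* and 45.7% at *Satb1*, against 49.7% over all regions, and its part in these shares was not tested. A TCF7/LEF1 word was present in 20% of windows at *Tox* (13.2 to 29.1), 17.0% at *Satb1* (11.7 to 24.1) and 9.90% at *Tox2* (5.47 to 17.3), against 12.9% of all regions. An NFAT word was present in 12.6% at *Tox* (7.38 to 20.8), against 5.42% of all regions. For RUNX, GATA, ETS, EGR, AP-1 and NF-kB the share over all regions lay within the interval of each of the 3 windows. Of the intronic *Tox2* regions printed above, the highest, which was called at all 4 stages, held 2 E protein and 2 RUNX words. The region of DN and DP cells only held 5 words, of the E protein, RUNX and NF-kB families. The DN-only region of intron 5 held 1 E protein and 3 RUNX words. The *Satb1* region 123.2 kb upstream held 4 E protein words and 1 EGR word. The *Tox* region shared by SP4 and SP8 alone held no word. A match is a description of the letters and not a binding site, and windows of neighbouring regions can share bases.

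Motif content was also compared among regions of like stage. Regions called at SP4, SP8 or both at *Tox* and *Satb1* held an E protein word in 23.3% (21 of 90, 15.8 to 33.1), against 29.2% of all regions of that kind, and a RUNX word in 28.9%, against 29.0%. The DN-only regions at *Tox2* held an E protein word in 66.7% (28 of 42, 51.6 to 79.0), against 54.1% of all DN-only regions. All 3 of these intervals included the share of all regions of the same kind.

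*Tox3* and *Tox4*, relatives of *Tox* and *Tox2*, had fewer SP4 than DN peaks. At *Tox3* 12 (DN), 7 (DP), 9 (SP4) and 8 (SP8) peaks were called. At *Tox4*, which encodes a broadly expressed member of the family, they numbered 55, 37, 35 and 39. The TSSs of both had a region at all 4 stages.

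Windows of the same kind were drawn around 18 genes that TOX or SATB1 are known to act on or with in T cells. The ratio of SP4 to DN peaks was above that of the whole lists at 15 of the 18, with a median of 0.910 and a range from 0.676 (*Il2ra*, the interleukin-2 receptor alpha chain) to 1.54 (*Ctla4*, an inhibitory receptor). Over the 16207 windows, 50.2% were above that ratio. It was above 1 at 6 of the 18, against 7.18% of the 16207 windows. These 6 include the neighbours *Cd8a* and *Cd8b1*, which share most of their windows, and the neighbours *Ctla4* and *Cd28*. They are therefore not independent. The *Ctla4* window had 54 (DN), 45 (DP), 83 (SP4) and 79 (SP8) peaks. The window of *Cd28*, a costimulatory receptor gene that lies next to *Ctla4* and shares part of its window, had 57, 53, 73 and 75. At *Lef1*, which encodes a partner of TCF7, the numbers were 98, 91, 113 and 108, and at *Cd8a* 53, 58, 65 and 56. *Rag1* and *Rag2*, the recombinase genes, also share most of their windows and had 68 and 66 peaks at DN and 58 and 56 at SP4. The share of regions called at SP4 and SP8 alone had a median of 4.56% over the 18 windows. Its highest value, 15.4% at *Ctla4*, was below the 18.9% at *Tox* and above the 14.9% at *Satb1*. None of the 18 reached the SP4 to DN ratio of *Tox* or *Satb1*, but that of *Ctla4* lay within the counting interval of *Tox* (1.10 to 2.24). The SP8 to DN ratio was higher than at *Tox* (1.06) at *Ctla4* (1.46), *Cd28* (1.32), *Ikzf2* (1.25), *Lef1* (1.10) and *Cd8b1* (1.09). At the other genes of the list it was lower than at *Tox*, and none reached *Satb1* (1.68).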

How the data were processed

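The 16 ATAC-seq libraries came from 4 mice and 4 thymocyte stages. Per the study's methods, the authors mapped barcode-trimmed reads with BWA (mm10) and discarded PCR duplicates (Picard). They then down-sampled the libraries to their median depth and combined the 4 mice stage by stage. Peaks were called with MACS2 at a 5% FDR (MACS2 and mm10 are also named in the submitters' processing notes; versions are not given in the sources used here), and by their names the lists are free of blacklisted regions. The highest q-value in the lists was 4.98%. The deposited fold enrichment is a ratio over the local background at the summit, and the deposited −log10 q-value is the authors' unchanged MACS2 output. The summit offset was deposited in bp.

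From these, peaks lying wholly within a window were counted, peaks of different stages were merged at an overlap of 1 bp, and fold enrichment was ranked within each list. Regions, genes and TSSs are 1-based GENCODE M21 positions, a promoter is the 200 bp before a TSS, and introns and exons are those of 1 representative transcript per gene (Tox-201, Tox2-205, Satb1-208). Shares carry 95% Wilson intervals for counting error. No test was run, since regions and peaks are not replicates. Pooling hides differences between mice. The depths of the pooled stages were similar but not equal, and the lists are comparable only at the caller's threshold. No column belonged to other samples.

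Named regions were those over a TSS, the 3 highest of the regions called at all stages, the highest region of each other stage combination at or above the 75th percentile, and the widest. Neighbours were all protein-coding genes overlapping a window. Some items are not reported here. The genes, gene lists, motifs and rules were chosen with earlier results of these data known, and regions outside the rule are marked as chosen after their values were seen. RefSeq promoter sequences matched *Tox2* and *Satb1* and were not used here. Counting, merging, ranking and motif search were tested on simulated data, with 2000 of 2000 merged sites given their true stages and 450 of 450 planted motifs found. The simulated sites were spaced too far apart to join, so the merging of close neighbours was not tested. Python 3.11.15, numpy 2.4.6 and matplotlib 3.10.9 were used.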

Additional observations from a re-analysis of the deposited data

How the results depend on the processing

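Of 162 values under 9 alternatives (windows with flanks of 50 kb, 100 kb or none, peaks that overlap the window, a q-value of at most 0.001, peaks at or above the 25th percentile, lists of equal length, merging up to 150 bp apart and a reciprocal overlap of 50%), 145 stayed within their counting interval or within 1.5 times the count, and 17 moved. Of the 9 ratios to DN, 7 had an interval that excluded 1, and none of these moved to the other side of 1, but in 6 of their 63 alternatives the interval included 1. These were SP4 to DN at *Tox* above the 25th percentile (0.922 to 2.11), DP to DN at *Tox2* in the gene body (0.322 to 1.09) and with lists of equal length (0.675 to 1.38), SP8 to DN at *Tox2* with lists of equal length (0.511 to 1.10), and DP to DN at *Satb1* with flanks of 100 kb (0.937 to 1.98) and above the 25th percentile (0.662 to 1.70). With every list cut to the 104411 peaks of the shortest, which sets the ratio of the whole lists to 1, the DP to DN ratio was 1.45 at *Tox*, 0.967 at *Tox2* and 2.29 at *Satb1*, and the SP8 to DN ratio 1.68, 0.75 and 2.76. The SP4 to DN ratio at *Satb1* was then 2.82, single-stage regions made up 38.4% at *Tox2* and regions of all 4 stages 15.3% at *Satb1*. Regions numbered 56 at *Tox2* and 82 at *Satb1* with flanks of 50 kb and 31 and 59 in the gene body alone, against 101 and 141, since the windows are smaller. Above the 25th percentile *Satb1* kept 79 regions and the share of all 4 stages at *Tox2* was 39.7%. With a reciprocal overlap of 50%, that share was 16.8% at *Tox2* and 14.2% at *Satb1*. The cause of the moved shares was not tested. The rank by q-value was the only alternative added after the data were seen. No paired analysis was possible because the authors pooled the 4 mice of each stage before calling peaks, and leaving out each mouse was not run for the same reason. Read depth per region was not used here, so weak signal below the caller's threshold cannot be told apart from closed chromatin.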

Other observations

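The kind of region also differed between the windows. Regions outside promoters and exons made up 94.7% at *Tox* (90 of 95), 86.1% at *Tox2* (87 of 101) and 76.6% at *Satb1* (108 of 141), against 78.5% of all regions. At *Satb1* 17.0% (24 of 141) overlapped an exon but no promoter, against 10.6% of all regions. Regions called at all 4 stages had median widths of 491 bp at *Tox*, 553.5 bp at *Tox2* and 487.5 bp at *Satb1*, against 465 bp over the series. Regions of a single stage had median widths of 127.5, 137 and 145.5 bp, against 141 bp.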
